A study of Mus musculus with 4 samples.

Results

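The response of IFN-γ treated tumor cells to low oxygen was read from 2 RNA-seq libraries of MC38, a mouse colon carcinoma cell line. One library came from MC38 cells given IFN-γ under normoxia (20% oxygen) and the other from MC38 cells given IFN-γ under hypoxia (1.5% oxygen). These are 2 of the 4 libraries of the study. The other pair came from untreated MC38 cells under normoxia and under hypoxia, and it shares no library with the IFN-γ pair. All 4 libraries are of wild-type cells of the same line. The methods of the study name 5 ng/mL IFN-γ for 24 h for most experiments and do not give the time under hypoxia of these cultures. All genes of the table were read, so that 11497 of 27179 genes were measured, meaning a mean of at least 50 counts over the IFN-γ pair.

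Each condition was represented by 1 library, and no difference below has a replicate check. Every change is therefore a log2 ratio of the hypoxic over the normoxic library, with a 95% interval that covers counting error only, and no test was made. A gene was counted as higher or lower when this ratio reached 1.5-fold. The spread between cultures was not measured, and an interval clear of 0 does not show that a second culture would give the same ratio. In bulk RNA, fewer cells with a transcript and less transcript per cell cannot be told apart.

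Cells sense oxygen mainly through prolyl hydroxylases of the EGLN family, which mark the HIF-α proteins for destruction by the VHL ubiquitin ligase. When oxygen is scarce the α subunit is kept, pairs with ARNT and activates genes for glucose uptake, glycolysis, pH control, blood vessel growth and the removal of mitochondria. IFN-γ acts through JAK kinases and STAT transcription factors on another set of genes, which includes IRF1, guanylate-binding proteins, antigen presentation and the checkpoint ligand PD-L1. HIF-1α is controlled largely as a protein, so its own mRNA need not follow its activity.

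The cell type labelled as colon cancer was checked against marker genes. Of 8 epithelial markers, Cdh1, Cldn7 and Cdx2 had no count in any of the 4 libraries, Epcam had none in either IFN-γ library, and the summed epithelial counts were 75 under normoxia and 63 under hypoxia with IFN-γ. Of these, Krt8 took 56 and 48 counts. Vim, an intermediate filament gene of mesenchymal cells, had 74838 and 75215 counts. The 5 fibroblast markers summed to 1347 and 1255 counts, most of them from Pdgfra (1175 and 1077). The 7 leukocyte markers summed to 99 and 89 counts, of which Lyz2 gave 77 and 82, and the 4 endothelial markers to 28 and 50. Defining epithelial markers of the colon were thus at or near 0 in these libraries. The library totals of the series lay between 34302971 and 34537939 counts.

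Past 1.5-fold, genes with more counts in the hypoxic library of IFN-γ treated cells outnumbered those with fewer, whereas by the counting interval alone they did not. Of the 11497 genes measured, 333 were at least 1.5-fold higher under hypoxia (2.90%) and 83 were at least 1.5-fold lower (0.722%). At 2-fold the numbers were 80 and 8, and at 4-fold they were 4 and 0. With no minimum of fold, the interval lay above 0 for 2731 genes (23.8%) and below 0 for 3114 (27.1%), and the ratio itself was below 0 for 51.5%. The median log2 ratio of all genes measured was -0.01, with quartiles at -0.12 and 0.13. The 333 higher genes together took 1.72% of the counts under normoxia and 3.25% under hypoxia, whereas the 83 lower genes took 0.0905% and 0.0549%. Every one of these genes had a counting interval clear of 0, but the whole interval lay past 1.5-fold for only 131 of the higher and 9 of the lower genes.

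Counts behind these genes were low in many cases. The median mean count was 222 for the higher genes and 114 for the lower genes, against 1210 for all genes measured. Between 50 and 200 counts, 161 of 1596 genes were higher (10.1%) and 59 were lower (3.70%). From 200 to 1000 counts the numbers were 84 (2.41%) and 20 (0.574%) of 3487 genes. Among the 6414 genes with 1000 counts or more, 88 were higher (1.37%) and only 4 were lower (0.0624%). The plot of the ratios against the mean count shows this, with the blue points of the lower genes almost all at its left side.

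**Figure D1:**
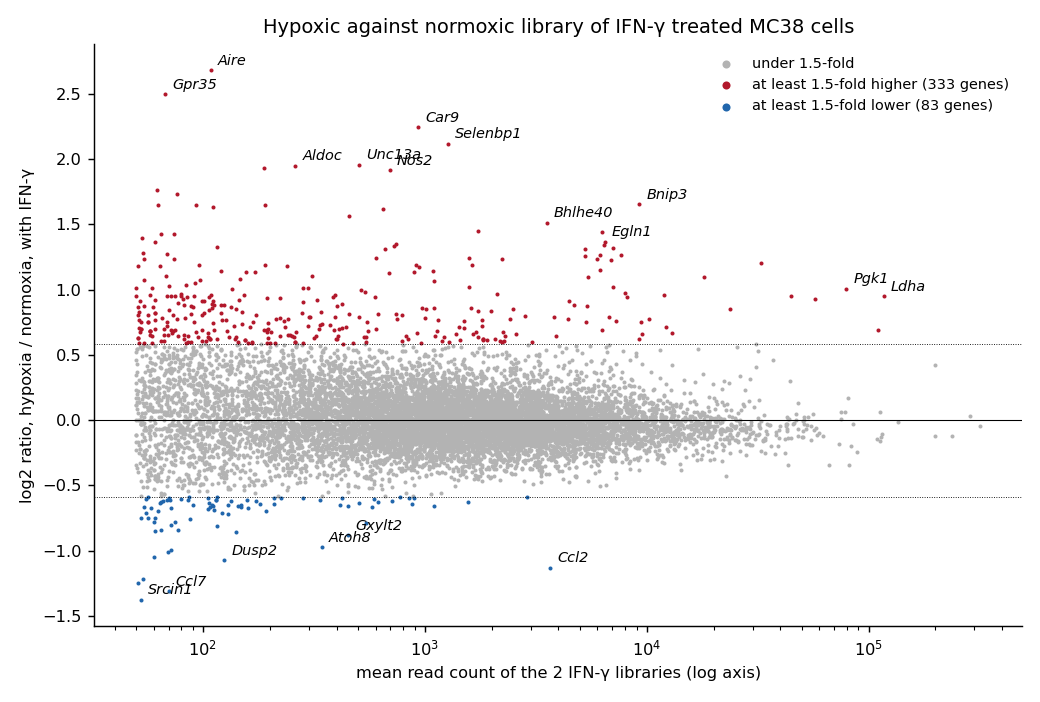
Log2 ratio of the hypoxic over the normoxic library with IFN-γ (vertical axis) against the mean read count of both libraries (horizontal log axis) for 11497 genes, each a point. Dotted lines mark 1.5-fold. The 333 red points spread over the whole range of counts, and of the 83 blue points 59 lie under 200 counts.

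The largest ratio belonged to Aire, the regulator of tissue antigen expression in the thymus, with 29 counts under normoxia and 188 under hypoxia in IFN-γ treated cells. Its log2 ratio was 2.68 (95% counting interval 2.13 to 3.32). Without IFN-γ the counts were 42 and 246. Gpr35, a G protein-coupled receptor, followed with 20 and 115 counts (2.50) and with 16 and 133 in untreated cells. Aire (chr10:78030022-78043610, GRCm38) overlaps Dnmt3l in the annotation, and the strand setting of the counting is not given in the sources used here. Both genes were higher under hypoxia in either pair, by more than 4-fold.

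Car9 (chr4:43507026-43513729) encodes carbonic anhydrase IX, a cell surface enzyme of pH control and a classical HIF target. It had 324 counts under normoxia and 1536 under hypoxia with IFN-γ, a log2 ratio of 2.24 (2.07 to 2.42), and 422 and 1733 counts without IFN-γ, a ratio of 2.02. Selenbp1, a methanethiol oxidase gene, had 477 and 2066 counts (2.11). Its value is uncertain because 61.1% of its 31-base words also occur in another annotated gene. Unc13a, a factor for vesicle release, had 207 and 803 counts (1.95), and Myh7b, a myosin heavy chain gene, had 78 and 299 (1.93). Lman1l rested on 28 and 96 counts (1.76) and the copper transporter gene Atp7b on 35 and 117 (1.73). All of these were also higher in the hypoxic library of untreated cells.

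Nos2 (chr11:78920787-78960226), inducible nitric oxide synthase, had more counts in the hypoxic IFN-γ library than in any other. The 4 libraries held 40 counts in untreated normoxia, 184 in untreated hypoxia, 292 in normoxia with IFN-γ and 1099 in hypoxia with IFN-γ. The ratios were 1.91 (1.73 to 2.10) with IFN-γ and 2.17 without it, and their difference of -0.26 had an interval from -0.79 to 0.26. The level thus stood highest where both were applied, and the interval of the difference in fold included 0. Of the other 7 measured genes of the list for arginine and tetrahydrobiopterin, which supply substrate and cofactor to NOS2, none reached 1.5-fold. Odc1, the first enzyme of polyamine synthesis, was the lowest of them, with 26243 and 19498 counts (-0.43), and 31.3% of its words are shared with other genes.

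**Figure D2:**
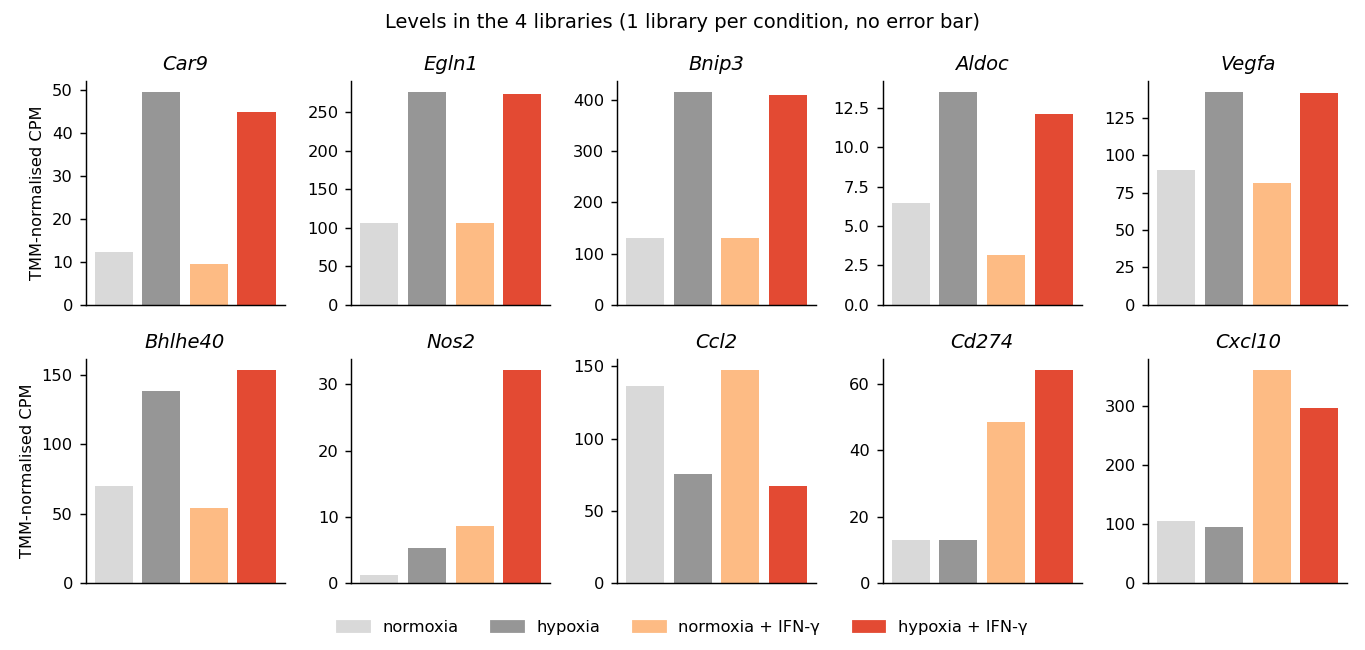
TMM-normalised CPM, which is the count scaled to library size (vertical axes from 0) of 10 genes in the 4 libraries, 1 bar per library and no error bar because each condition has 1 library. Car9, Egln1, Bnip3, Aldoc, Vegfa, Bhlhe40 and Nos2 stand higher in both hypoxic libraries, Ccl2 stands lower in both, and Cd274 differs between the IFN-γ libraries (48.5 and 64.2 CPM).

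The oxygen-sensing genes themselves were read first. Of 8 measured HIF subunits and sensors, 3 were higher and none was lower, with a median log2 ratio of 0.22 against -0.01 for all genes measured. Over all genes measured, 2.90% were higher and 0.722% lower, and the counts of every list below stand beside these shares. Members and lists were chosen with earlier results of these data known, so these counts are a description only. Counting intervals narrow as counts rise, so shares by interval are not matched for depth. Egln1, which encodes the main prolyl hydroxylase PHD2, had 3625 counts under normoxia and 9329 under hypoxia, a ratio of 1.36 (1.31 to 1.42). Egln3 had 999 and 2269 counts (1.18) and Vhl 1639 and 2521 (0.62). The mRNA of the α subunit differed little, since Hif1a had 5404 and 5094 counts (-0.08, interval -0.14 to -0.03). Its partner Arnt had 2172 and 2174.

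Glucose uptake and glycolysis made up the largest block. Of 22 measured members, 14 were higher and none was lower (median 0.86), against 2.90% and 0.722% of all genes measured. The list took 1.70% of all counts under normoxia and 2.86% under hypoxia. Slc2a1, the glucose transporter GLUT1, had 4507 and 10833 counts (1.27), and Slc16a3, the lactate exporter MCT4, had 19796 and 45561 (1.20). Pdk1, which holds pyruvate back from the mitochondria, had 4127 and 9636 (1.22). Most steps of the pathway stood past the fold, from Hk2 (0.87) and Pfkl (1.10) through Aldoa (0.95), Tpi1 (0.93), Pgam1 (0.85) and Eno1 (0.69) to Ldha (0.95). Pgk1 had 52784 and 106062 counts (1.01), but shares 54.7% of its words with other genes, and Pgam1 (37.1%) and Eno1 (28.5%) are uncertain for the same reason.

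Some steps of the same pathway did not reach 1.5-fold. Gapdh had 26141 and 32538 counts (0.32) and Pkm had 169992 and 227191 (0.42), both with over 20% of words shared. The bifunctional enzymes that set fructose 2,6-bisphosphate went the other way in sign, Pfkfb3 at -0.31 (1446 and 1165 counts) and Pfkfb4 at -0.21 (494 and 428). Some glycogen genes were higher next to glycolysis. Gys1, glycogen synthase, had 3546 and 8339 counts (1.23), Pgm1 had 3817 and 8440 (1.15) and the branching enzyme gene Gbe1 1251 and 2232 (0.84). These were the 3 of 11 measured genes of the list for lipid droplets and glycogen that passed the fold. The glycogen genes Ugp2 and Pygb of the same list were measured and did not pass the fold. The lipid droplet gene Hilpda stood just under it with 1032 and 1517 counts (0.56).

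Mitophagy and mitochondrial adaptation had the highest median of all 34 lists, 1.17 over 8 measured members, of which 6 were higher. Bnip3 and Bnip3l encode receptors that tag mitochondria for autophagy. Bnip3 had 4459 counts under normoxia and 14014 under hypoxia, a log2 ratio of 1.65 (1.60 to 1.70), and Bnip3l had 3619 and 8704 (1.27), with 20.3% and 23.7% of their words shared. Fam162a (1.25), Mgarp (1.24), Higd1a (1.10) and the protease gene Lonp1 (0.71) were higher too. The kinase gene Pink1 (0.37) and Fundc1 (0.15) were within 1.5-fold. Among 6 measured acid-base transporters and enzymes only Car9 passed the fold, and the lactate importer Slc16a1 had 14913 and 13922 counts (-0.10).

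Secreted and matrix genes followed. Of 9 measured angiogenic and vasoactive factors, 5 were higher (median 0.72). Vegfa, the main signal for vessel growth, had 2792 and 4828 counts (0.79), and Apln, the ligand of the apelin receptor, had 940 and 2222 (1.24). Pgf, placental growth factor, had the largest ratio of the list at 1.63 (1.19 to 2.11) but rested on 54 and 168 counts. Vegfb (-0.03) and Vegfc (-0.17) did not pass the fold. Of 9 collagen hydroxylases and lysyl oxidases 4 were higher, with P4ha2 at 3638 and 9207 counts (1.34), Plod2 at 0.88 and P4ha1 at 0.79.

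Chromatin and clock genes also held members past the fold. Of 15 measured histone lysine demethylases, which need oxygen for catalysis, 4 were higher and 13 had an interval above 0 (median 0.32), against 23.8% of all genes measured. Kdm4b had 1327 and 3121 counts (1.23), Kdm5b 116 and 265 (1.19), Kdm3a 3031 and 4733 (0.64) and Kdm6b 1450 and 2226 (0.62). In the list of hypoxia stress genes and clock repressors, 8 of 16 were higher and 1 was lower (median 0.52). Bhlhe40, a transcriptional repressor of the clock, led it with 1841 and 5243 counts (1.51), and Ndrg1 had 4049 and 10098 (1.32). Ddit4, an inhibitor of mTORC1, had 5551 and 10677 (0.94). The lower member was Nr1d1, the clock repressor REV-ERBα, with 865 and 562 counts (-0.62).

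**Figure D3:**
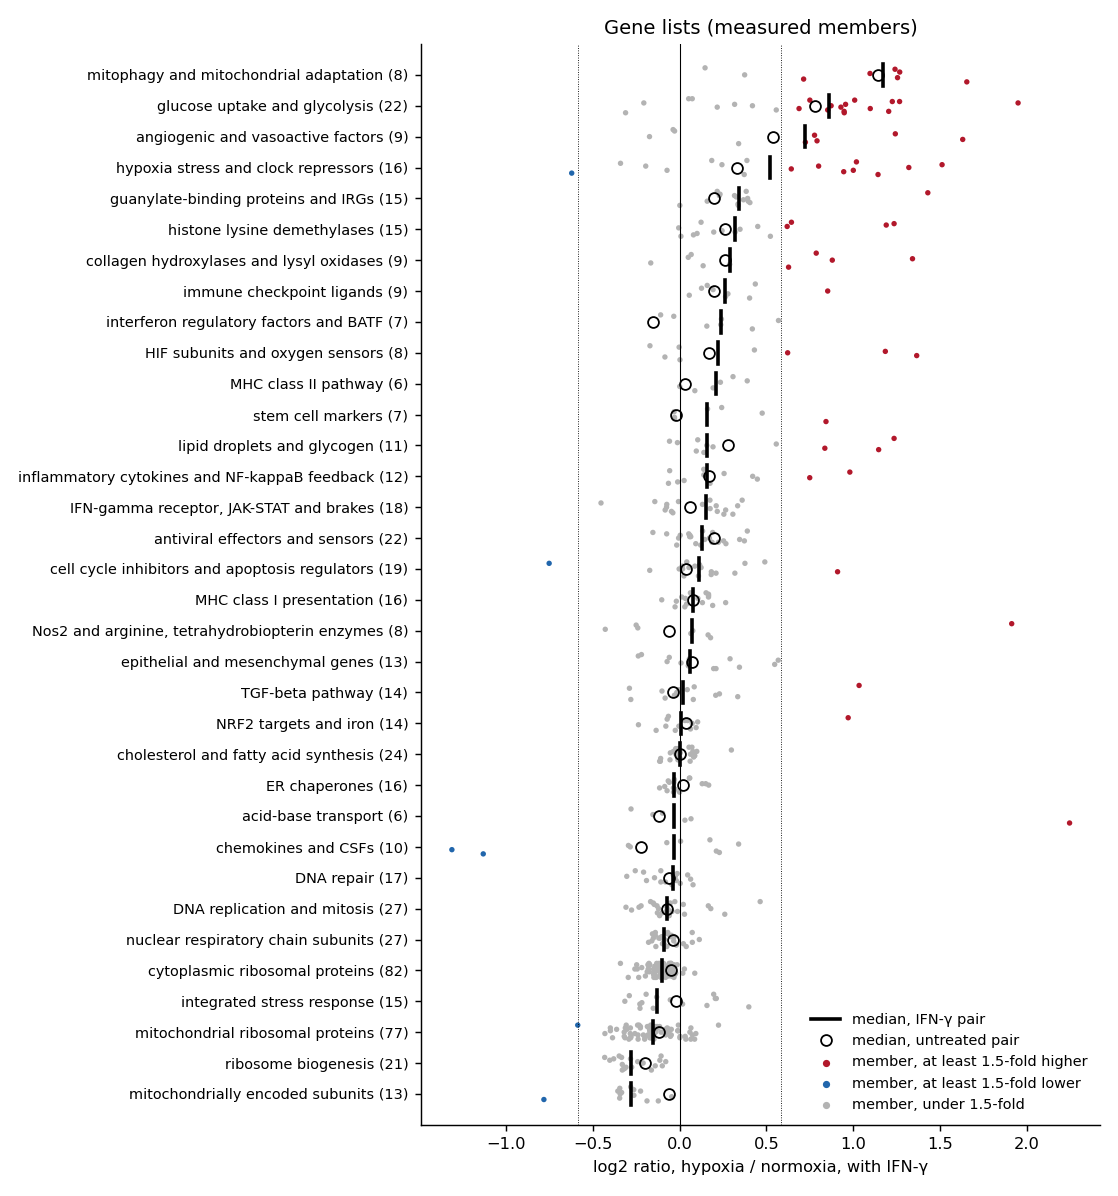
Log2 ratio of the hypoxic over the normoxic library with IFN-γ (horizontal axis) for the measured members of 34 gene lists (number in brackets), each member a point, red or blue past 1.5-fold (dotted lines). Black bars are list medians in the IFN-γ pair and open circles are medians in the untreated pair over members measured in both. Mitophagy (1.17) and glycolysis (0.86) are at the top, and ribosome biogenesis and the mitochondrially encoded subunits (both -0.28) are at the bottom.

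The DNA just before the start of hypoxia genes is shown because HIF dimers recognise a short core there. The core was searched as ACGTG and as GCGTG on both strands in the 250 bases before the RefSeq start (GRCm38.p6). The sequences are those of the highest-ranked genes of the hypoxia lists that had an entry and a match, so the presence of the core was part of the choice. Each is written 5′ to 3′ on the strand of its gene, and capitals mark the matches, where CACGT or CACGC is the core on the opposite strand.
Car9, chr4:43506776-43507025, forward strand: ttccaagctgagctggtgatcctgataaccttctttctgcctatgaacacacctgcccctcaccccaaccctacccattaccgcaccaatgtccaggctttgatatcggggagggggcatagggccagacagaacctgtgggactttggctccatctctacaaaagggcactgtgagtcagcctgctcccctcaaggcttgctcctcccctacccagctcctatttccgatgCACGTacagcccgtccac
Aldoc, chr11:78322823-78323072, forward strand: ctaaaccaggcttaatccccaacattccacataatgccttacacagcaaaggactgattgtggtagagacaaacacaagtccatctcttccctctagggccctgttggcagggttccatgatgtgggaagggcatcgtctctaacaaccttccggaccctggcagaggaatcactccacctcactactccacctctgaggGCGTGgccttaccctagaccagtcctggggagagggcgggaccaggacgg
Bnip3, chr7:138909507-138909756, reverse strand: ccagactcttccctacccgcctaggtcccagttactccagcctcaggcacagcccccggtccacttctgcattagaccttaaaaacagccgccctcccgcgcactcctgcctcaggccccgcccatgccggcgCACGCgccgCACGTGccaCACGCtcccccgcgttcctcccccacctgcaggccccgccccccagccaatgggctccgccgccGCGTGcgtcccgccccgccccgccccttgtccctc
Pgf, chr12:85177314-85177563, reverse strand: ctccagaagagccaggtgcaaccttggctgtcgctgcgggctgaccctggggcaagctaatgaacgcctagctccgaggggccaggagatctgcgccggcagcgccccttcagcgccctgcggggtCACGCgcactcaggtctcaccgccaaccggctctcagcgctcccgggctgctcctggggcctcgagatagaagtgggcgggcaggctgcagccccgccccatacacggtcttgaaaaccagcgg
Egln1, chr8:124949255-124949504, reverse strand: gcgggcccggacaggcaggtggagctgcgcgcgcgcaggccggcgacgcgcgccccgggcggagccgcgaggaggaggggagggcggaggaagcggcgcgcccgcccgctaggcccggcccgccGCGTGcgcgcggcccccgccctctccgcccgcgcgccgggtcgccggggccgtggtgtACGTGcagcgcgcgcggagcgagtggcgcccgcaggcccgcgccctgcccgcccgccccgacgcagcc
P4ha2, chr11:54100674-54100923, forward strand: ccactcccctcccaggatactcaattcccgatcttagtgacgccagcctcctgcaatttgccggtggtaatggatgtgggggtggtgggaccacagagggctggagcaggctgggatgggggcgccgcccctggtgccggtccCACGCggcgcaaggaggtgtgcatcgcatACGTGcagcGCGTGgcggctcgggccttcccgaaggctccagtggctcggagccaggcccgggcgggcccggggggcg

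Aldoc, whose log2 ratio was 1.95, held 1 match 50 bases before its start, and Car9 held 1 at 18 bases. Bnip3 held 5 matches, of which the palindrome CACGTG counts on both strands. Egln1 held 2 and P4ha2 3, while Pgf held 1 at 124 bases. The share with either core was close to that of all measured genes. It was found before 142 of the 245 higher genes with an entry (58.0%, exact 95% binomial interval 51.5 to 64.2) and before 59.0% of the 9022 measured genes with an entry, and 38.6% of all 27025 genes in the table of promoters held it. Among the 49 lower genes with an entry the share was 46.9%. ACGTG alone was found before 31.0% (25.3 to 37.2) of the higher, 22.4% of the lower and 22.7% of all measured genes. In this window the median number of CG pairs, which both cores contain, was 13 for higher, 11 for lower and 17 for all measured genes. A match is a description of the letters and not evidence of binding.

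Genes with lower counts in the hypoxic IFN-γ library included 2 chemokines for monocytes. Ccl2 (chr11:82035577-82037452) had 5041 counts under normoxia and 2302 under hypoxia, a log2 ratio of -1.13 (-1.20 to -1.06), and 4719 and 2634 counts without IFN-γ (-0.86). Its neighbour Ccl7 (chr11:82045712-82047525) had 100 and 40 counts (-1.31, -1.89 to -0.78), and 120 and 81 without IFN-γ. Ccl2 was the only one of the 10 lowest genes with over 1000 counts. Dusp2, a phosphatase of MAP kinases, had 169 and 80 counts (-1.07), Sphk1, which makes sphingosine 1-phosphate, 81 and 39 (-1.04), and the lowest of all, Srcin1, 76 and 29 (-1.37).

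Better counted was Atoh8, a bHLH transcription factor gene, with 456 and 232 counts (-0.97) and 529 and 312 without IFN-γ (-0.78). Gxylt2, a xylosyltransferase of Notch, had 585 and 317 (-0.88). The remaining genes among the 10 lowest are uncertain. The pseudogene Gm5621 (72 and 30 counts) shares 80.2% of its words, Zfp939 (96 and 48) shares 20%, and the lncRNA 1700008J07Rik (75 and 32) lies over Srcap in the annotation.

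Genes of ribosome production had ratios mostly below 0, and nearly all were within 1.5-fold. All 21 ribosome biogenesis genes had an interval below 0, against 27.1% of all genes measured, and none passed 1.5-fold (median -0.28). That share is not matched for depth, and the list was chosen with earlier results of these data known. Rrp9, of the small subunit processome, had 5503 and 4079 counts (-0.43), Dkc1, a pseudouridine synthase, 6672 and 5047 (-0.40), and nucleolin (Ncl) 96546 and 81640 (-0.24). Of 82 measured cytoplasmic ribosomal protein genes 79 lay below 0 (median -0.10), against 51.5% of all genes measured, and together they took 6.90% of counts under normoxia and 6.47% under hypoxia. The 77 mitochondrial ribosomal protein genes had a median of -0.15, with Mrpl47 (930 and 619 counts, -0.59) as the member past the fold. Ratios with IFN-γ also went with transcript length, with medians of -0.05 in the quintile of genes with the shortest transcripts and 0.05 in that with the longest. The cytoplasmic ribosomal protein genes have a median transcript of 1100 bases, which falls in the shortest quintile, and the part of length in their ratios was not tested.

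All 13 mitochondrially encoded subunits were below 0, against 51.5% of all genes measured, with a median of -0.28. ND1, of complex I, had 91368 and 71929 counts (-0.34), CYTB, of complex III, 74563 and 58678 (-0.34), and COX1, of complex IV, 323652 and 313468 (-0.05). Only ND3 passed the fold, on 76 and 44 counts (-0.78). The 27 measured nuclear subunits of the respiratory chain had a median of -0.09 and none passed the fold. The 12 mitochondrially encoded subunits measured in both pairs had a median of -0.27 with IFN-γ and stood closer to 0 in untreated cells, at a median of -0.06.

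IFN-γ response genes were next, and past 1.5-fold the shares of all genes measured were 2.90% higher and 0.722% lower. Of 18 measured genes of the receptor, the JAK-STAT pathway and its brakes, none passed 1.5-fold (median 0.15), with Jak2 highest at 1591 and 2041 counts (0.36), Jak1 at 5814 and 6983 (0.27) and the feedback inhibitor Socs1 at 1220 and 1187 (-0.04). Stat3 had 3644 counts under normoxia and 3990 under hypoxia with IFN-γ (0.13, 0.07 to 0.20), but 2400 and 2048 without it (-0.24). The signs differed between pairs and the difference was 0.38 (0.27 to 0.48). Among 7 interferon regulatory factors and BATF genes none passed the fold, and Irf1, the early transcription factor of the response, had 20118 and 23759 counts (0.24, 0.21 to 0.27).

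Guanylate-binding proteins and immunity-related GTPases, which attack vacuoles of intracellular microbes, had ratios mostly above 0 and within 1.5-fold. Of 15 measured members, 14 had an interval above 0, against 23.8% of all genes measured, and the median was 0.34, but only Gbp8 passed the fold, on 35 and 95 counts (1.43) and with 31.1% of its words shared. Gbp2 had 23153 counts under normoxia and 29245 under hypoxia (0.34), Iigp1 6755 and 8711 (0.37), Gbp7 5872 and 7769 (0.40) and Irgm1 13415 and 13420 (0.00). In untreated cells Gbp2 had 597 and 846 counts and Iigp1 92 and 88. Without IFN-γ only 8 of the 15 reached the count minimum.

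Antigen presentation and antiviral genes had smaller medians. Over all genes measured 2.90% were higher and 0.722% lower, and no gene past the fold in lists of this size is near that share. None of 16 MHC class I genes passed the fold (median 0.08), with the transporter gene Tap2 at 6005 and 7212 counts (0.27), H2-K1 at 76364 and 79686 (0.06) and B2m at 35010 and 34361 (-0.03). H2-K1 shares over 20% of its words with other genes. None of 6 MHC class II pathway genes passed it, although their master regulator Ciita had 116 and 152 counts (0.39, 0.03 to 0.75). None of 22 antiviral effectors and sensors did (median 0.13), from Oas3 at 5965 and 7811 (0.39) to Ifit1 at 955 and 858 (-0.15).

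Cd274, which encodes PD-L1, did not reach 1.5-fold between the IFN-γ libraries. It had 1658 counts under normoxia and 2191 under hypoxia with IFN-γ, a log2 ratio of 0.40 (0.31 to 0.50). In untreated cells it had 447 and 457 counts, a ratio of 0.02, and the difference between pairs was 0.39 (0.18 to 0.60). Of 9 measured checkpoint ligands only Pvr, a ligand of TIGIT, passed the fold, with 1780 and 3212 counts (0.85) and 2005 and 3181 without IFN-γ (0.65). Cd47, the signal against phagocytosis, had 2004 and 2429 (0.28). Ido1, the tryptophan-degrading enzyme, had 207 and 280 counts with IFN-γ (0.44) and 0 and 2 without, so that no ratio is given for untreated cells.

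Chemokines did not move as 1 group. Of 10 measured chemokines and colony-stimulating factors, Ccl2 and Ccl7 were lower, none was higher, and the median was -0.03. Cxcl10, which draws T cells, had 12345 and 10134 counts (-0.28, -0.32 to -0.25) with IFN-γ and 3657 and 3322 without it (-0.15). Ccl5 had 585 and 740 counts (0.34), but 614 and 531 in untreated cells (-0.22), and the interval of the difference (0.34 to 0.79) was clear of 0. Csf1, the macrophage growth factor, stood at -0.29 with IFN-γ, within 1.5-fold, and at -0.72 without. Il15 had 264 and 298 counts (0.18, -0.07 to 0.42).

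In the list of inflammatory cytokines and NF-κB feedback 2 of 12 measured genes were higher. Tnfaip3, the deubiquitinase A20, had 361 and 712 counts (0.98) and nearly the same in untreated cells, 371 and 727. Tnfsf10, the death ligand TRAIL, had 410 and 689 counts with IFN-γ (0.75) and 48 and 50 without it (0.04). The interval of the difference ran from 0.11 to 1.30. Its untreated pair fell under the minimum mean of 50 counts, so this difference is uncertain. Cdkn1a, the cell cycle inhibitor p21, had 3107 and 5832 counts (0.91), and the death receptor gene Fas was lower on 66 and 39 counts (-0.75). None of 27 replication and mitosis genes passed the fold (median -0.07), with Mki67 at 19233 and 19512 counts (0.02), nor did any of 17 DNA repair genes (median -0.04). Both counts are near the shares of all genes measured (2.90% higher and 0.722% lower).

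The list of stem cell markers, of which the study followed only some, showed 1 gene past the fold among the 7 of 13 members measured. That gene was Aldh1a1, with 50 and 90 counts (0.84, 0.33 to 1.38), which is not a marker the study names. Sox2 had 1354 and 1513 counts (0.16), Cd44 13829 and 13544 (-0.03) and Myc 3359 and 3289 (-0.03). Nanog, Prom1 and Pou5f1, which the study followed, were not among the 5 markers measured in both pairs. The survival gene Mcl1 had 6248 and 6233. Hmox1, heme oxygenase, was the only NRF2 or iron gene past the fold of 14, at 5388 and 10550 counts (0.97). Inhba, a subunit of activin, was the only one of 14 TGF-β pathway genes, on 55 and 113 counts (1.03). None of 15 integrated stress response genes (median -0.13), 16 ER chaperones (-0.03), 24 cholesterol and fatty acid synthesis genes (0.00) or 13 epithelial and mesenchymal genes (0.06) reached it. Of all genes measured, 2.90% were higher and 0.722% lower.

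The same comparison in untreated cells was set beside it for the 11329 genes measured in both pairs. Ratios of both pairs went together across genes (Pearson r = 0.599, Spearman rho = 0.51, a description across genes, which are not independent). Their SDs were 0.252 with IFN-γ and 0.250 without, and the SD of the difference was 0.225. In the untreated pair 272 genes were higher (2.40%) and 81 lower (0.715%). Of the 307 genes higher with IFN-γ, 153 (49.8%) passed the fold in untreated cells too and 275 had the same sign. The share of all genes above 0 in untreated cells was not counted. The medians of the 307 were 0.78 with and 0.58 without IFN-γ. Seen from the untreated pair, 153 of its 272 higher genes (56.2%) passed with IFN-γ, with medians of 0.77 without and 0.64 with it. Genes chosen in either pair thus had the larger median in the pair that chose them.

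Lower genes overlapped less past the fold. Of 75 genes lower with IFN-γ, 10 (13.3%) were also lower in untreated cells, against 0.715% of all genes measured in both pairs. Of 81 genes lower in untreated cells the same 10 made up 12.3%. By sign alone, 66 of the 75 were below 0 in untreated cells, with medians of -0.66 with and -0.26 without IFN-γ. The share of all genes below 0 in untreated cells was not counted. Of the 81, 58 were below 0 with IFN-γ, against 51.5% of all genes measured in the IFN-γ pair. The interval of the difference between pairs, which again covers counting error only, lay above 0 for 1910 genes (16.9%) and below 0 for 1787 (15.8%). Among the 307 genes higher with IFN-γ it lay above 0 for 118 and below 0 for 11, and among the 272 chosen in untreated cells for 29 and 77.

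**Figure D4:**
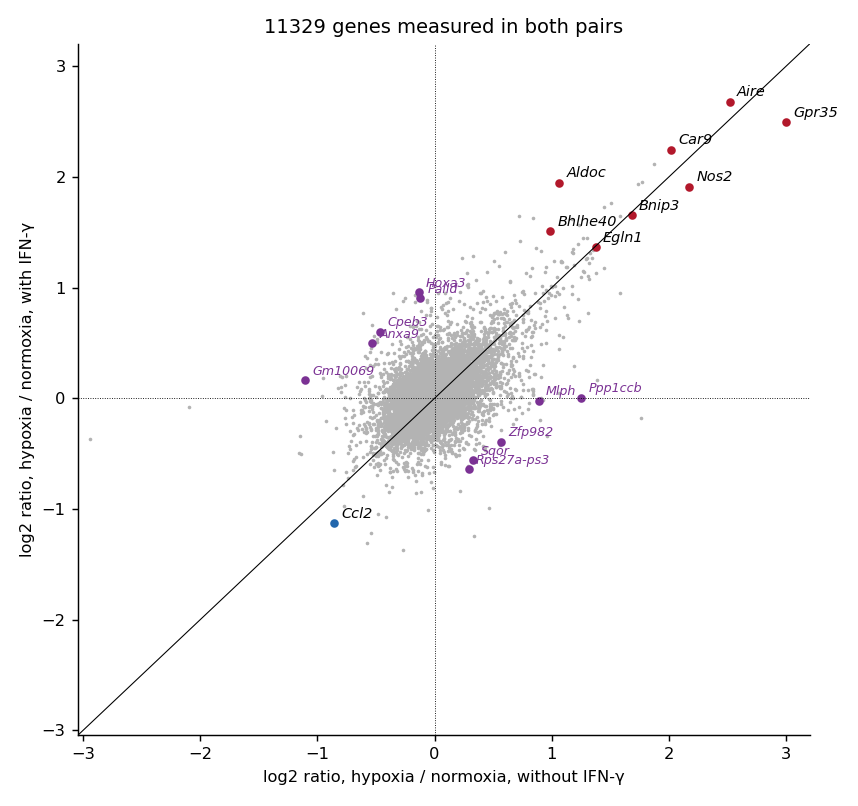
Log2 ratio of hypoxia over normoxia with IFN-γ (vertical axis) against the same ratio without IFN-γ (horizontal axis) for 11329 genes, with the line of equal ratios. Genes in purple have the largest differences between pairs among genes that held 100 counts or more in all 4 libraries. Car9, Bnip3 and Egln1 lie near the line, and Aldoc and Bhlhe40 lie above it.

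Hypoxia genes differed in how close their ratios were between pairs. The ratio of Egln1 was 1.36 with and 1.37 without IFN-γ (difference -0.01, -0.09 to 0.07), that of Bnip3 1.65 and 1.68 (-0.03, -0.10 to 0.04), and that of Slc2a1 1.27 and 1.30 (-0.04, -0.11 to 0.03). All 3 intervals included 0. Of the 22 glycolysis genes, however, 8 had a difference with its interval above 0 and 2 below, among them Pgam1 (0.21) and Pdk1 (-0.09). Over all genes measured in both pairs the shares were 16.9% above and 15.8% below. With high counts even small differences cleared 0, such as those of Eno1 (0.03) and Ldha (0.02). Higd1a of the mitophagy list had a smaller ratio with IFN-γ, 1.10 against 1.25 (difference -0.16, -0.24 to -0.07). List medians with and without IFN-γ were 0.86 and 0.78 for glycolysis, 1.17 and 1.14 for mitophagy, 0.72 and 0.54 for angiogenic factors and 0.52 and 0.33 for hypoxia stress genes and clock repressors. The list of lipid droplets and glycogen went the other way, at 0.16 with and 0.28 without IFN-γ. Of its 11 genes, 2 had a difference with its interval above 0 and 4 below, beside the same shares of all genes (16.9% and 15.8%).

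Some hypoxia genes had a larger ratio with IFN-γ. Bhlhe40 stood at 1.51 with and 0.99 without it, from 1841 and 5243 counts against 2410 and 4823, a difference of 0.53 (0.42 to 0.63). Aldoc, the aldolase C gene, had 107 and 414 counts with IFN-γ and 223 and 472 without it, so that the difference of 0.88 (0.50 to 1.27) came with a lower normoxic count in IFN-γ treated cells. Pgf (1.63 and 0.84), Kdm6b (0.62 and 0.23), Per1 (0.64 and 0.24) and Hmox1 (0.97 and 0.75) had differences with intervals above 0 too. Fn1, fibronectin, had 13791 and 20142 counts with IFN-γ (0.55) and 17149 and 17926 without (0.05), a difference of 0.50 (0.46 to 0.54). Of 15 integrated stress response genes, 5 had a difference with its interval above 0, such as Ppp1r15a (0.40 and -0.04). For 7 it lay below, such as Trib3 (0.20 and 0.51) and Ddit3 (0.16 and 0.49). Over all genes measured in both pairs the shares were 16.9% above and 15.8% below.

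**Figure D5:**
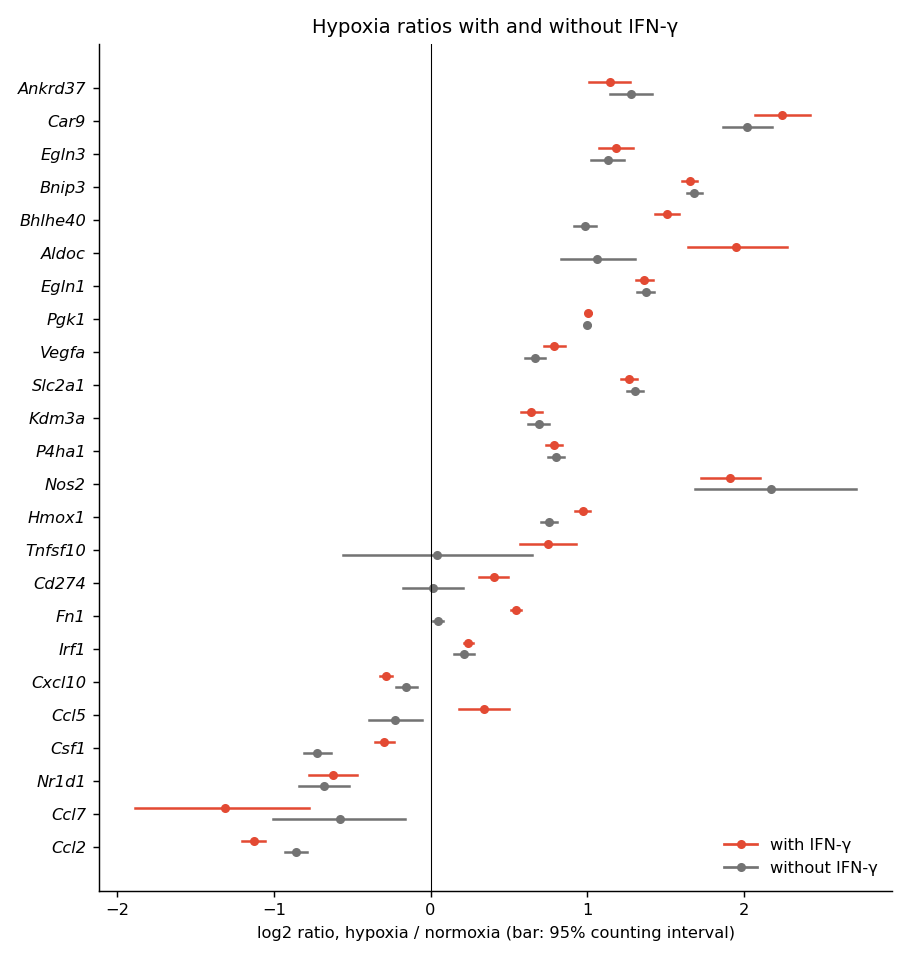
Log2 ratio of hypoxia over normoxia for 24 genes (horizontal axis), in red with IFN-γ and in grey without, each with its 95% counting interval as a bar. The bars of Bnip3, Egln1, Pgk1 and P4ha1 overlap, and those of Bhlhe40, Aldoc, Fn1, Ccl5 and Csf1 do not.

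Where all 4 libraries held 100 counts or more, the largest positive differences were those of Gm10069 (1.26), Hoxa3 (1.09), Cpeb3 (1.07), Anxa9 (1.03) and Palld (1.03). Hoxa3, a homeobox gene, had 104 and 202 counts with IFN-γ and 125 and 115 without, and overlaps other Hoxa genes in the annotation. Palld, an actin-binding scaffold, had 196 and 367 with IFN-γ and 337 and 313 without. The most negative were Ppp1ccb (-1.25), Zfp982 (-0.96), Rps27a-ps3 (-0.93), Mlph (-0.91) and Sqor (-0.89). Ppp1ccb shares 99.0% of its words with other genes and Zfp982 29.7%, and Rps27a-ps3 is a pseudogene, so these 3 values are uncertain. Mlph, a melanosome transport adaptor, had 126 and 124 counts with IFN-γ and 138 and 259 without.

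The difference between pairs also went with base composition and transcript length. Over 10973 genes with a GENCODE M21 transcript (96.9%), its median was -0.05 in the quintile of genes with the lowest GC share and 0.06 in that with the highest, and it was -0.04 in the quintile with the shortest transcripts and 0.04 in that with the longest. Across genes the Spearman rho of the difference was 0.22 with GC share and 0.15 with length, a description. Their part in the differences of named genes was not tested.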

How the data were processed

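RNA-seq was done on MC38 cells in 4 conditions with 1 library each, and the hypoxic and normoxic libraries of IFN-γ treated cells were compared. Per the labels, poly-A RNA was selected and strand-specific paired-end libraries were sequenced on the DNBSEQ platform, although the study's text speaks of total RNA. The authors aligned reads with HISAT2 and deposited raw whole-number counts per NCBI gene ID. Their processing notes name featureCounts and mm10, while the annotation, the strand setting and the treatment of reads with several matches are not given in the sources used here.

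Symbols of 25275 of 27179 genes, coordinates and promoters were taken from RefSeq (GRCm38.p6). Counts were scaled by TMM (edgeR 4.0.16, R 4.3.3), 0.5 counts were added, and log2 ratios were given exact conditional Clopper-Pearson 95% intervals (scipy 1.17.1). Intervals of differences between pairs were from Poisson counting error. Intervals and the floor of 3 counts cover counting error only, and reads carried no molecular identifiers. Genes needed a mean of 50 counts over a pair. Genes sharing 20% or more of their 31-base words with another gene (GENCODE M21 transcripts) were called uncertain. No test was made, because each condition has 1 library. The ratios and intervals were tested on simulated data. Named were the 10 highest and 10 lowest ratios, the genes the study followed, list members, and the 5 largest differences between pairs each way. Members and lists were chosen with earlier results of these data known.

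Alternatives were DESeq2 1.42.0 size factors, total counts, other count minimums, 2-fold, 5 counts added and other promoter windows.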

Additional observations from a re-analysis of the deposited data

Results flagged for a closer look

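Named and listed genes alone were searched for hypoxia ratios of opposite sign with and without IFN-γ, both counting intervals being clear of 0. Of 40 such genes, 5 had a difference of at least 1.5-fold, namely Cpeb3, Anxa9, Zfp982, Rps27a-ps3 and Sqor. All 5 had been named because they were among the 5 largest differences between pairs either way, so a large difference was part of their choice. The share of genes with opposite signs among all genes measured was not counted, so the number 40 has no background. Some of the 40 had ratios near 0 that cleared it on high counts, such as Canx (-0.03 with and 0.02 without IFN-γ). The differences were not tested, since each condition has 1 library.

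Cpeb3, a regulator of translation, had 114 counts under normoxia and 173 under hypoxia with IFN-γ and 152 and 111 without it, a difference of 1.07 on the log2 scale (0.58 to 1.56). Anxa9, an annexin gene, had 200 and 282 counts with IFN-γ and 301 and 210 without, a difference of 1.03 (0.67 to 1.39). Sqor, which oxidises sulfide in mitochondria, went the other way, with 205 and 139 counts with IFN-γ and 154 and 196 without, a difference of -0.89 (-1.32 to -0.45). Zfp982, a zinc finger gene with 29.7% of its words shared, had 226 and 172 counts with IFN-γ and 172 and 258 without (-0.96). The pseudogene Rps27a-ps3 had 1064 and 683 counts with IFN-γ and 436 and 540 without (-0.93), and Rimklb overlaps it in the annotation.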

How the results depend on the processing

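No paired analysis was possible because each condition has 1 library, and no library could be left out for the same reason. Scaling by DESeq2 size factors or total counts moved every ratio by 0.0072 or 0.0038 and left the numbers of higher genes at 339 and 338. The count minimum and the fold set the numbers by construction. With a mean of at least 10 counts, 803 genes were higher and 383 lower, with 200 counts 172 and 24, with no filter 2616 and 1933, and at 2-fold 80 and 8. Genes higher in both pairs were 279 at 10 counts and 46 at 2-fold, and genes lower in both pairs were 74 at 10 counts, 4 at 200 counts and 0 at 2-fold. Pearson r across genes was 0.352 at 10 counts and 0.681 at 200. Of 170 list medians under alternatives 165 stayed within the counting error of their members. Exceptions at 10 counts were the HIF subunits and sensors (0.40), angiogenic factors (0.53) and collagen hydroxylases (0.21), and at 200 counts angiogenic factors (0.37) and hypoxia stress genes (0.72), where the members measured differ. All 123 alternative ratios of 41 named genes stayed inside their intervals under DESeq2 size factors, total counts and 5 counts added. Promoter shares for ACGTG alone were 31.0%, 22.4% and 22.7% for higher, lower and all measured genes. With 300 bases, up to 50 after the start, the share of all measured genes was 65.4%. With any listed start, an alternative chosen after seeing the data, it was 63.4%, and that of higher genes 64.5%. ACGTG alone with any listed start was found before 37.1% of higher, 28.6% of lower and 26.0% of all measured genes. Depth limits genes under 200 counts most, where 59 of the 83 lower genes lie.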

Other observations

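Genes on none of the lists held further well-counted changes. The genes described here have a mean of at least 1000 counts and the 10 highest or lowest ratios of that kind, a rule made after the values were seen. Espn, an actin-bundling protein of cell protrusions, had 933 counts under normoxia and 2550 under hypoxia with IFN-γ, a log2 ratio of 1.45 (1.34 to 1.56). Arrb1, β-arrestin 1, had 3385 and 9203 (1.44), and Ak4, a mitochondrial adenylate kinase, 3027 and 7491 (1.31). Ero1a, the oxidase for disulfide formation in the ER, had 4643 and 9398 counts (1.02) although the chaperones of the ER were not past the fold. In untreated cells the ratios of these 4 genes were 1.30, 1.27, 1.33 and 1.03 in the same order. Lrp1, a scavenger and signaling receptor, stood apart with 722 and 1305 counts with IFN-γ (0.85) and 946 and 1140 without it (0.25), a difference of 0.60 (0.42 to 0.78).

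Of the lowest genes of this kind, Mfng, a glycosyltransferase of Notch, had 1341 and 849 counts with IFN-γ (-0.66) and 1318 and 1069 without (-0.32). Pop1, a subunit of RNase P and RNase MRP, had 3484 and 2313 counts (-0.59), and Pwp2 and Mdn1, which act in ribosome assembly, had 3592 and 2552 (-0.49) and 3891 and 2797 (-0.48). Slco4a1, a membrane transporter, had 7693 and 5463 (-0.49).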
